A study of Mus musculus with 2 samples.

Results

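The genes described here are the ribosomal protein genes of the mouse, measured cell by cell in fat tissue. They were chosen by name: every symbol that starts with Rps or Rpl and a number, together with Rplp0, Rplp1, Rplp2 and Rpsa. The ribosomal S6 kinases and the symbols with the pseudogene suffix -ps were left out. The rule found 87 of the 27998 genes in the tables, 34 named for the small subunit and 53 for the large subunit. They lie on 19 chromosomes. The rule also takes in Rps19bp1, Rpl7l1 and Rpl6l, which carry the name without being counted among the usual cytosolic ribosomal proteins, and it leaves out Fau and Gnb2l1 (RACK1), whose products do belong to the ribosome and which are described at the end. Cells came from the stromal vascular fraction of epididymal white adipose tissue, which is what remains of fat once the adipocytes are removed. Both groups were wild-type male C57BL/6J mice aged 18 weeks, 1 group on a normal chow diet (NCD) and 1 on a high fat diet (HFD) for 12 weeks. There is 1 library per diet, made with a droplet kit that counts the 3′ ends of transcripts by UMI (unique molecular identifier), and how many animals went into each is not given in the sources used here. With 1 library per diet no difference between diets has a replicate check, diet and library cannot be told apart, no test was made, and the 95% intervals given below cover counting error only.

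A ribosome has a small subunit, which reads the messenger RNA, and a large subunit, which joins amino acids. Each subunit holds ribosomal RNA and a set of proteins that are needed in nearly equal numbers, and many of their messenger RNAs begin with a run of pyrimidines that lets the kinase mTOR control their translation with nutrient supply. Among blood and tissue cells, resting lymphocytes are known for a high share of ribosomal protein transcripts in their small messenger RNA pool. A few of the proteins have a paralogue that can take their place in the ribosome.

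The NCD library held 7365 barcodes and 33825653 UMIs and the HFD library 6840 barcodes and 18623508 UMIs, with medians of 4230 and 2020 UMIs per barcode. The libraries shared 64 barcode sequences. After filtering, 7162 NCD and 6447 HFD cells were kept. Mitochondrial transcripts took 2.35% of the UMIs of the median kept NCD cell and 3.52% of those of the median kept HFD cell. Free RNA, transcripts of other cells caught in a droplet, was followed by the level of markers that a class should lack (15 stromal genes in immune and endothelial cells, 7 macrophage genes in progenitors and mesothelial cells), as a median percentage of what these genes reach over the whole library. This level was higher in the HFD library in each of the 7 classes compared, and each marker on either list was higher there. Its values stand beside the results they touch. Some HFD clusters passed the level of the whole library: endothelial cells (155%), T cells (145%), mast cells or basophils (137%) and macrophages (106%). Whether the markers came from free RNA or from doublets, droplets that held several cells, was not tested. Values with free RNA subtracted take them all as free RNA.

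Ribosomal protein genes gave 17.5% of all NCD UMIs and 17.6% of all HFD UMIs. All but Rpl10l, known from testis, had UMIs, and its count of 0 allows at most 0.0887 CPM (counts per 1000000 UMIs) with NCD and 0.161 CPM with HFD. Rpl3l, Rpl39l and Rpl10l were the only members with fewer than 100 UMIs in all, and 84 members reached 10 CPM in a library. Of the members, 82 reached 100 CPM in a library. Among these is Rpl6l, which is annotated as a processed pseudogene, at 263 CPM with NCD and 277 CPM with HFD. Whether its UMIs are separate from those of other genes was not tested. The counts are of transcript ends, so transcript length does not enter them. Over the classes the 5 highest mean levels were those of Rpl41, a very short and basic protein of the large subunit, at 7090 CPM, Rps29, a zinc-binding protein of the small subunit, at 6337 CPM, Rps27 at 5796 CPM, Rpl37a at 5434 CPM and Rpl13 at 5394 CPM.

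The first comparison asked how large a share of a cell's transcripts the ribosomal protein genes take in each cell class. Every cell was thinned to 1400 UMIs, so that all cells had the same depth, and a class name means a profile like that class by its markers. In the NCD library the share was highest in lymphocytes and lowest in cells of the vessel wall. B cells gave 37.9% (37.6 to 38.2, 66 cells), T cells 30.2% (30.0 to 30.5, 142 cells) and type 2 innate lymphoid cells 28.9% (28.6 to 29.1, 118 cells). In the innate lymphoid cells stromal markers stood at 25.05% of their library level, against 4.49% in B cells and 9.91% in T cells. Natural killer cells gave 27.7%, plasmacytoid dendritic cells 27.3%, dendritic cells 25.5% and monocytes 23.4%. Each of these 7 immune classes stood above the macrophages. Macrophages, the tissue phagocytes, gave 15.9% (2287 cells) and progenitors, the fibroblast-like cells from which adipocytes arise, 16.1% (3242 cells). Mesothelial cells, which line the fat pad, gave 13.7%, endothelial cells 12.0% and mural cells, the contractile cells around vessels, 9.55% (9.34 to 9.77, 51 cells). B cells and mural cells are the ends of this order, and progenitors and macrophages are close neighbours in it. At this depth the median B cell had a UMI from 78 of the members and the median mural cell from 61.

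**Figure D1:**
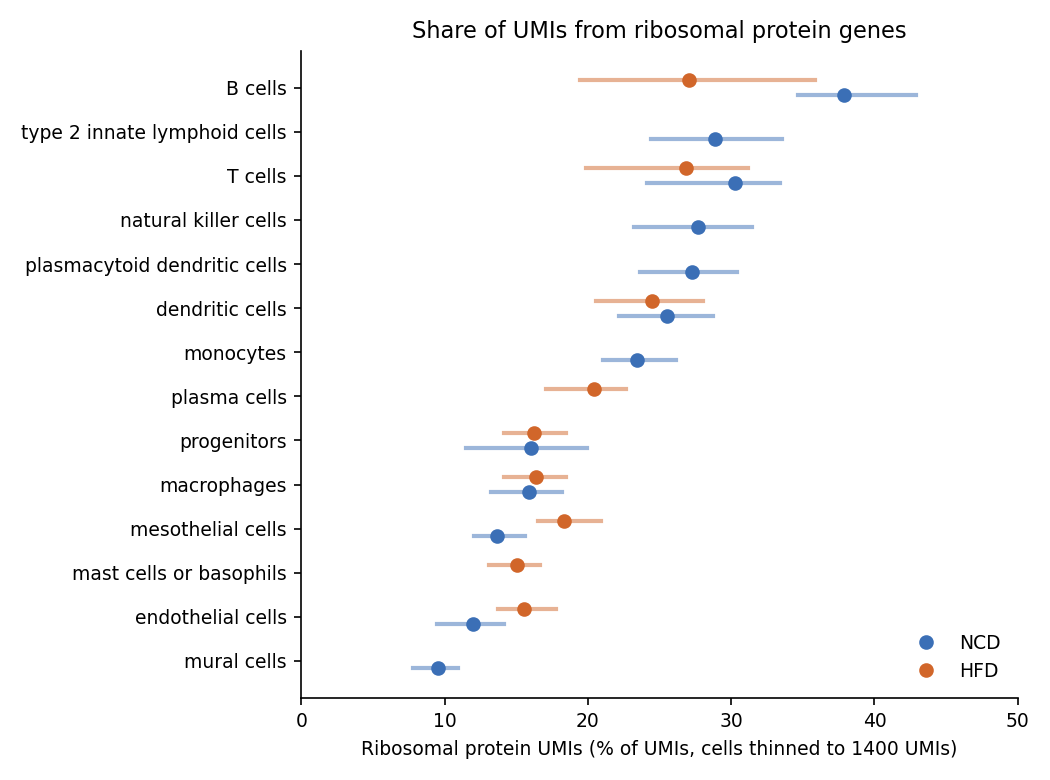
Percentage of UMIs from ribosomal protein genes (horizontal axis) in each class with at least 50 cells in a library, after thinning to 1400 UMIs per cell; points are shares over all cells of a class, lines the 25th to 75th percentile of its cells, blue NCD and orange HFD. In the NCD library the points run from 9.55% in mural cells to 37.9% in B cells, while the HFD points lie closer together.

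Cells of 1 class did not have 1 share. Among NCD progenitors 5% of cells lay below 8.43% and 5% above 26.4%, and the 9 NCD progenitor clusters of at least 50 cells ran from 10.6% to 21.8%. The clusters were made without the ribosomal protein genes. The highest was the cluster led by Cd55, Pcolce2, Col14a1 and Efhd1, with 21.8% in 688 NCD cells, and it was also the highest progenitor cluster of the HFD library, with 19.5% in 59 cells. The lowest was a cluster led by Sult1e1, Inmt and Aldh1a3, with 10.6% in 128 NCD cells. Progenitor clusters thus lay on both sides of the share of their class, in either library. In these clusters free RNA stood between 2.07% and 3.23% in the NCD library and at 6.00% in the HFD cells of the highest one. Among NCD macrophages the cluster led by Cd209f, Cd209g, Fcna and Lyve1 gave 14.6% in 1117 cells and the cluster led by Retnla, Ccl24 and Cxcl2 gave 20.2% in 188 cells.

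The second comparison asked whether these shares differed between the diets after the same thinning. Thinning leaves the expected share of a cell as it was, so cells of unlike original depth are still compared. Over all cells of each of the 2 largest classes the shares were close. Progenitors gave 16.1% (16.0 to 16.1) in the NCD library and 16.3% (16.2 to 16.3, 2914 cells) in the HFD library, a ratio of 1.01 (1.01 to 1.02). Macrophages gave 15.9% and 16.4% (2161 cells), a ratio of 1.03. These ratios are past their counting error, and both are small beside the spread of the cells: 56.5% of NCD progenitors and 58.8% of NCD macrophages lay below the median of the HFD cells of their class. Among cells of 1400 to 2000 UMIs before thinning, progenitors gave 15.4% with NCD and 16.3% with HFD, and macrophages 15.7% and 16.6%. Progenitors of 3000 to 4000 UMIs gave 16.9% and 15.8%, those of 4000 to 6000 UMIs 16.2% and 15.8%, and those of at least 6000 UMIs 15.5% and 16.1%. Macrophages of 3000 to 4000 UMIs gave 15.8% and 16.4%, those of 4000 to 6000 UMIs 15.7% and 15.8%, and those of at least 6000 UMIs 17.2% and 16.3%. The order thus differed between depth ranges, and in progenitors it did not follow depth in 1 direction. Different clusters held most of each class in the libraries. The NCD progenitors lay mainly in clusters led by Hsd11b1, Inmt and Ccl11, by Cd55 and Pcolce2, and by Cilp and Eln, and the HFD progenitors mainly in clusters led by Mmp3 and Meg3 and by Sfrp4 and Cxcl14. The NCD macrophages lay mainly in clusters led by Cd209f and Fcna and by Ccl12 and Cbr2, the HFD macrophages in clusters led by Mmp12, Trem2 and Spp1. Progenitor clusters with little free RNA in both libraries mostly had lower HFD shares. Those led by Cd55, Cilp, Gpx3 and Col3a1 gave 21.8%, 17.6%, 16.1% and 18.9% with NCD and 19.5%, 16.1%, 13.9% and 13.4% with HFD. The Gpx3 and Col3a1 clusters held 20 and 14 NCD cells. That led by Smpd3 (20 HFD cells) gave 17.8% and 19.6%, the other way. Macrophage clusters went both ways: 21.6% (16 NCD cells) and 16.1% for Mmp12 and Spp1, 20.2% and 23.9% (28 HFD cells) for Retnla. The cluster led by Ccl12 and Pf4 gave 16.5% and 18.5% (12 HFD cells). Nearly level were the clusters led by Cd209f, at 14.6% and 14.2% (38 HFD cells), and by Stmn1, at 17.35% and 17.36%. With free RNA subtracted, the log2 ratio turned from 0.02 to -0.04 in progenitors and from 0.04 to -0.01 in macrophages, so neither direction held.

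Dendritic cells, which present antigen to T cells, gave 25.5% in the NCD library (269 cells) and 24.5% in the HFD library (184 cells), a ratio of 0.96 (0.95 to 0.97). Without thinning the values were 25.7% and 26.2%, the other way round. Among cells of at least 6000 UMIs before thinning they were 26.0% in 139 NCD cells and 29.3% in 26 HFD cells. In clusters with little free RNA the HFD share was 30.4% in 25 cells, against 25.5% in the NCD library. Those HFD cells are of 1 cluster, led by Xcr1 and Irf8, whose 101 NCD cells gave 28.1%, while the NCD value also holds a cluster led by Ccl17 and Cd209a with 23.4% in 95 NCD cells and no HFD cell. The direction in dendritic cells was therefore not settled by these libraries.

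Smaller classes differed more, and their HFD shares lay nearer to the 17.7% of the kept HFD cells as a whole. Endothelial cells gave 12.0% in the NCD library (330 cells) and 15.5% in the HFD library (236 cells), a ratio of 1.29 (1.28 to 1.31), and mesothelial cells 13.7% (55 cells) and 18.4% (59 cells), a ratio of 1.34 (1.31 to 1.38). In both low-share classes the HFD value was thus the higher one. With free RNA subtracted the values were 11.5% and 9.50% in endothelial cells, which turns the direction, and 13.6% and 18.4% in mesothelial cells. B cells gave 37.9% (66 cells) and 27.1% (192 cells), a ratio of 0.715 (0.706 to 0.724), and T cells 30.2% (142 cells) and 26.8% (308 cells), a ratio of 0.888 (0.879 to 0.896). In the high-share classes the HFD value was the lower one. T cells of 2000 to 3000 UMIs before thinning gave 34.0% with NCD and 27.7% with HFD, and those of 3000 to 4000 UMIs 31.1% and 31.1%. Free RNA was higher in the HFD library in each of these classes, and whether it made the differences in share was not tested. It was also higher in progenitors (2.63% and 25.9%) and macrophages (5.86% and 29.5%), whose shares were close. Stromal markers stood at 9.49% of their library level in NCD endothelial cells and at 75.8% in HFD ones, at 4.49% and 54.3% in B cells and at 9.91% and 51.9% in T cells. Macrophage markers stood at 5.06% and 28.4% in mesothelial cells. Summed, the 15 stromal markers took 0.252% of NCD and 2.25% of HFD endothelial UMIs, and 0.137% and 1.65% of B cell UMIs, with none of the 15 at 0.

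The clusters with little free RNA, in which the markers stay at or below 25% of the library level, gave other values. In B cells the share was 37.9% in the NCD library and 36.6% in the 74 remaining HFD cells, where the other HFD B cell cluster, with stromal markers at 89.8%, gave 21.1%. In T cells the 75 remaining HFD cells gave 41.1% against 30.6%, which turns the direction. These HFD cells are all of the cluster led by Cd8b1, Cd3d and Dapl1, whose 36 NCD cells gave 39.4%. The other NCD T cells of this comparison lay in clusters with 26.2% (58 cells) and 29.3% (42 cells), so different clusters held the class in the libraries. In endothelial cells the values were 12.0% and 12.8%, where the 49 HFD cells are of 1 cluster whose 237 NCD cells gave 10.9%. In mesothelial cells they were 13.7% and 15.5% in 10 HFD cells. Over all classes, the HFD clusters of at least 50 cells with markers above 25% of their library level reached at most 24.5%, and those at or below 25% ran from 13.4% to 41.0%.

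**Figure D2:**
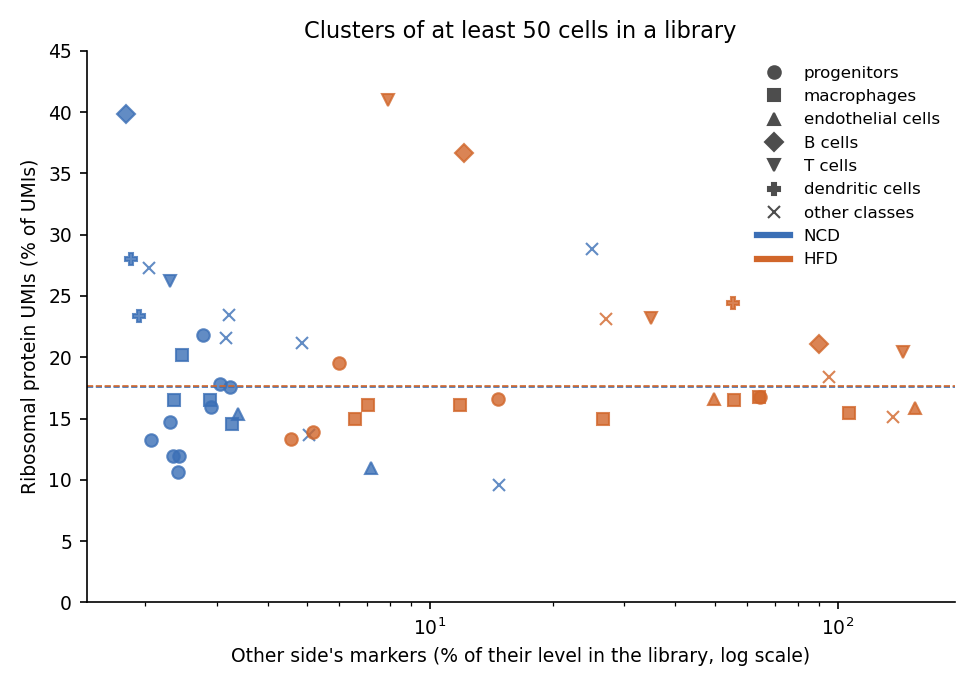
Percentage of UMIs from ribosomal protein genes (vertical axis) against the level of markers the class should lack, relative to the whole library (%, horizontal log axis), for each cluster with at least 50 cells in a library; colours give the library, shapes the class, dashed lines the share over all kept cells. Clusters below 10% on the horizontal axis spread from 10.6% to 41.0%, and HFD clusters above 25% reach at most 24.5% and lie around the dashed lines at 17.6% and 17.7%.

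The third comparison asked which single genes differed between the diets within a class, by the ratio of their CPM. In progenitors 0 of 84 members with at least 10 CPM were at least 1.5-fold lower in the HFD library, where 15.2% of all 8076 genes were, and 0 were at least 1.5-fold higher, where 8.21% of all genes were. Among genes with at least 100 CPM the shares over all genes were 11.6% lower and 8.10% higher. The median member stood at a log2 ratio of -0.01, with 46 members below 0 and 38 above, beside a median of -0.21 over all genes. The members thus lay within a narrow band, from -0.43 to 0.38. The median was 0.00 for the small subunit and -0.03 for the large subunit.

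In macrophages 0 of 84 members were at least 1.5-fold lower, where 22.3% of all 7463 genes were, and 1 was at least 1.5-fold higher, where 15.3% of all genes were. With a minimum of 100 CPM the shares over all genes were 17.1% lower and 16.0% higher. The median member stood at 0.05, with 32 below 0 and 52 above, beside -0.06 over all genes, and the range was -0.38 to 0.61. Among genes with at least 100 CPM the order turned, with 0.05 for the members and 0.07 over all genes. The member past 1.5-fold was Rpl22l1, and it was not past it with free RNA subtracted. The median of small subunit genes was -0.01 and that of large subunit genes 0.10.

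Within this band some members stood well apart from the others. Of the small subunit, Rps29 was at 3624 CPM in NCD progenitors and 4489 CPM in HFD progenitors, 1.24-fold higher (1.22 to 1.26), and at 7707 CPM (NCD) and 5937 CPM (HFD) in macrophages, a ratio of 0.770 (0.761 to 0.780). The gene was thus among the highest members in 1 class and was the lowest in the other. Its NCD level was 2.13 times as high in macrophages as in progenitors, and its HFD level 1.32 times. Rps28, which sits where the messenger RNA leaves the subunit, was at 2033 and 2506 CPM in progenitors, a ratio of 1.23, and at 2607 and 2569 CPM in macrophages.

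Among the small subunit genes lowest in HFD progenitors were Rps12, Rps20 and Rps4x. Rps12 was at 1600 CPM with NCD and 1256 CPM with HFD, a ratio of 0.785 (0.766 to 0.804). Rps20 stood at a log2 ratio of -0.25 and Rps4x, from the X chromosome, at -0.23. In macrophages Rps12 was at 1445 and 1218 CPM. The low HFD values of Rps12 thus came in both classes. Rps14 and Rps3a1, which lie on the platform of the small subunit, were low in HFD macrophages, at log2 ratios of -0.29 and -0.26, and stood at -0.14 and -0.02 in progenitors.

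Of the large subunit, 3 genes were among the highest in both classes. Rpl22l1 was at 988 CPM in NCD progenitors and 1289 CPM in HFD progenitors, a ratio of 1.30 (1.27 to 1.34), and at 546 and 836 CPM in macrophages, a ratio of 1.53 (1.47 to 1.59). Rpl15, a protein needed to build the large subunit, was at 694 and 872 CPM in progenitors, a ratio of 1.26 (1.22 to 1.30), and at 583 and 852 CPM in macrophages, a ratio of 1.46 (1.41 to 1.52). Rpl39, which lines the exit tunnel for the new protein chain, was at 1779 and 2223 CPM in progenitors and at 1569 and 2153 CPM in macrophages, a ratio of 1.37 (1.34 to 1.40). All 3 were higher in the HFD library in either class. Rpl31 and Rpl35, near the tunnel's mouth, stood at log2 ratios of 0.42 and 0.39 in macrophages and at 0.20 and 0.22 in progenitors. The lowest large subunit genes were Rpl7a in progenitors, at -0.25, and Rpl35a and Rplp1 in macrophages, at -0.29 and -0.28. Rplp1 is an acidic protein of the stalk that calls in elongation factors.

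**Figure D3:**
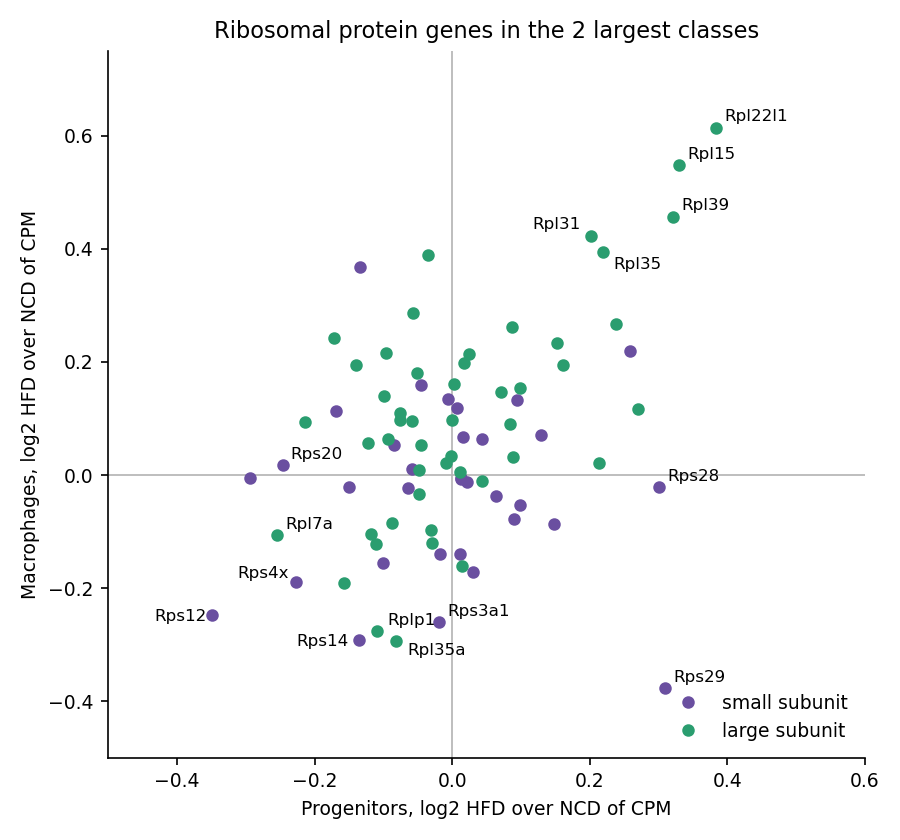
Log2 ratio of HFD over NCD CPM of the ribosomal protein genes with at least 100 CPM, in progenitors (horizontal axis) and macrophages (vertical axis), each point 1 gene, purple small subunit and green large subunit; both axes come from the same 2 libraries. Rpl22l1, Rpl15 and Rpl39 lie at the upper right, and Rps29 at the lower right, at 0.31 and -0.38.

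In the other classes the same genes were followed against the median of the members, since that median moved with the share. In endothelial cells 4 of 84 members were at least 1.5-fold higher, beside 15.9% of all genes, and 0 at least 1.5-fold lower, beside 26.7%. The 4 were Rpl22l1, Rpl39, Rps26 and Rps27rt, and the median member stood at 0.28. In mesothelial cells 5 were higher, beside 24.4%, and 0 lower, beside 36.8%, with a median of 0.28. Among them were Rps26, Rps28, Rpl37 and Rpl39. The HFD mesothelial cells held 152792 UMIs in all, so genes near 10 CPM rest there on few UMIs, while 82 members had at least 100 CPM. The shares over all genes therefore hold more counting error than the member counts. In B cells 1 member, Rps27rt, was lower, beside 21.7%, and 1, Rpl7l1 with 11 NCD and 36 HFD UMIs, was higher, beside 31.4%, with the median at -0.33. The member medians of these 3 classes therefore had the sign of the difference in share. In T cells 1 member, Rps27l, was lower, beside 27.3%, and 0 higher, beside 19.6%, and in dendritic cells 0 were lower, beside 21.5%, and 0 higher, beside 18.9%. Rpl22l1 lay above the member median in 7 of 7 classes, and so did Rpl39, Rpl31 and Rpl35, while Rps12, Rps14, Rpl7a and Rplp1 lay below it in 7 of 7. Each of these genes was named for its distance from that median in progenitors, macrophages or both. Its side there was fixed by the naming, so only the remaining classes add to these counts. With free RNA subtracted, Rpl22l1, Rpl39, Rpl31, Rps12, Rpl7a and Rplp1 still did so in 7 of 7. Rpl35 then lay above in 5 of 7, at -0.63 in endothelial and -0.02 in mesothelial cells, and Rps14 below in 6 of 7, at 0.36 in endothelial cells. In clusters with little free RNA Rpl31 and Rpl35 lay below in mesothelial cells, at -0.02 and -0.11, where 10 HFD cells are left. All 7 classes come from the same 2 libraries, so they are not separate evidence on diet.

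The fourth comparison asked how the mix of ribosomal protein transcripts differs between cell classes, by each gene's share of all ribosomal protein UMIs. Over the 7 classes and 2 libraries wide log2 ranges were those of Rpl22l1 (1.91), Rps27l (1.71), Rps29 (1.09), Rpsa (0.93) and Rpl10 (0.87). The narrowest was that of Rpl27a, at 0.22. Of 82 members with at least 100 CPM, 25 had a range past 1.5-fold and 57 did not. Rps29 took 4.80% of ribosomal protein UMIs in NCD macrophages and 2.26% in NCD progenitors, and 3.64% and 2.78% in the HFD library. Rpsa, also known as the laminin receptor precursor, took 0.979% and 0.887% of the UMIs of dendritic cells' ribosomal protein genes. It took 0.892% and 0.829% among B cells, with endothelial cells lowest at 0.515% and 0.568%. Dendritic cells thus stood highest for Rpsa in either library. Rpl10, which completes the catalytic centre of the large subunit, took 1.19% in NCD and 1.47% in HFD B cells, and 2.12% and 1.96% in macrophages.

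**Figure D4:**
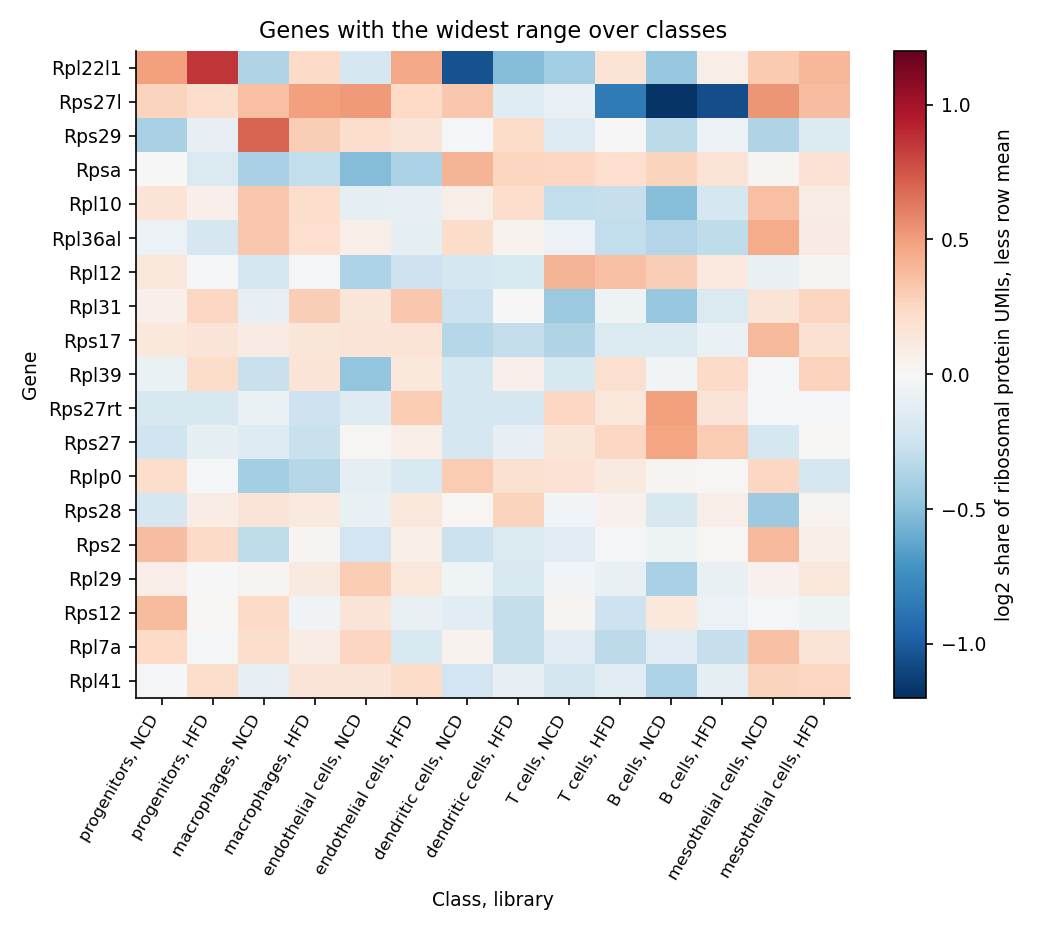
Log2 share of all ribosomal protein UMIs, less the mean of the row, for 19 of the genes with the widest range (rows) in 7 classes and 2 libraries (columns), red above and blue below the row mean. The Rps27l row is darkest blue in B cells, the Rpl22l1 row in NCD dendritic cells, and the Rps29 row is reddest in NCD macrophages.

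Paralogues were compared within their pair, as the share of the pair's UMIs that came from the paralogue. Rpl22l1 and Rpl22 encode related proteins that take the same place in the large subunit, and the Rpl22 protein is known to hold Rpl22l1 down. In progenitors Rpl22l1 gave 58.2% (57.6 to 58.8) of the pair's UMIs in the NCD library and 64.3% (63.6 to 65.1) in the HFD library. In macrophages it gave 42.5% (41.6 to 43.4) and 53.0% (52.1 to 53.9), and in dendritic cells 30.8% (29.2 to 32.4) and 38.2% (35.5 to 41.1). Progenitors thus stood highest and dendritic cells lowest of the 7 classes in either library. T cells gave 41.7% and 52.7%, endothelial cells 45.1% and 54.1%, B cells 43.1% and 50.9%, and mesothelial cells 51.1% and 55.7%. The HFD share was the higher one in all 7 classes, with intervals that overlap in mesothelial cells alone. Rpl22 itself was at 709 CPM in NCD progenitors and 714 CPM in HFD progenitors and at 739 and 742 CPM in macrophages. In these 2 classes the difference thus lay in Rpl22l1. Rpl22 was at 599 and 797 CPM in endothelial, 1228 and 1294 in dendritic and 769 and 831 in mesothelial cells. It was lower with HFD in T cells, at 1316 and 1211 CPM, and B cells, at 1526 and 1306 CPM. B cells had Rpl22l1 at 1158 and 1352 CPM, so both genes differed there. Free RNA was higher in the HFD library in each class. With it subtracted, Rpl22l1 gave 58.4% and 66.6% of the pair's UMIs in progenitors, 41.9% and 50.8% in macrophages, and in T cells the HFD share was 8.90 percentage points above the NCD share of 41.1%. The values were then 43.0% and 47.0% in B cells, 51.2% and 55.2% in mesothelial cells and nearly level in dendritic cells, at 30.3% and 31.0%. In endothelial cells the direction turned, to 44.3% and 40.6%. The higher HFD share was thus kept in 6 of the 7 classes. In clusters with little free RNA it was kept in all 7, with 44.6% and 50.3% in endothelial cells and 30.9% and 31.6% in dendritic cells.

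Rps27l, a paralogue of Rps27 known as a target of p53, was set against Rps27 in the same way. It gave 12.5% of the pair's UMIs in NCD and 11.1% in HFD progenitors, 12.5% and 14.5% in macrophages, and 14.4% and 11.3% in mesothelial cells. B, T and innate lymphoid cells stood lower. Rps27l gave 7.92% (7.24 to 8.63) in NCD and 4.46% (3.97 to 4.99) in HFD T cells and 3.09% (2.52 to 3.74) and 3.73% (3.20 to 4.31) in B cells. Type 2 innate lymphoid cells of the NCD library gave 4.76%, with stromal markers at 25.05% of their library level. With free RNA subtracted the values were 7.67% and 1.84% in T cells and 2.94% and 1.00% in B cells, so the order of the diets in B cells turned. Natural killer cells gave 5.47%, monocytes 7.41% and plasmacytoid dendritic cells 8.50% in the NCD library. Plasma cells, which arise from B cells, gave 15.1% (13.5 to 16.7) in the HFD library, with stromal markers at 56.2% of their library level. That interval overlaps those of HFD macrophages (14.1 to 14.9) and NCD mesothelial cells (12.6 to 16.3), so no class stood highest. With free RNA subtracted HFD macrophages gave 16.3%. Rps27 was at 12977 CPM in NCD B cells against 3499 CPM in NCD progenitors, and Rps27l at 414 and 499 CPM. These CPM include the higher total of ribosomal protein genes in B cells, 36.2% of unthinned UMIs against 16.0%. As shares of ribosomal protein UMIs, Rps27 was highest (3.58%) and Rps27l lowest (0.114%) in NCD B cells. Over the 7 classes and 2 libraries these shares had log2 ranges of 0.74 for Rps27 and 1.71 for Rps27l. Dendritic cells went from 12.6% to 8.85% and T cells, where Rps27l was at 701 CPM with NCD and 393 CPM with HFD, gave the only 1.5-fold lower member of that class.

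Rpl36al, an autosomal relative of the X-linked Rpl36a, gave 28.9% of the pair's UMIs in NCD and 25.2% in HFD progenitors and 40.1% and 34.7% in macrophages. Monocytes of the NCD library gave 47.5% and HFD plasma cells 48.3%. The HFD share was lower than the NCD share in each of the 7 classes, with 35.2% and 28.3% for endothelial cells. The intervals overlap in B cells, at 27.3% (24.4 to 30.3) and 26.0% (23.9 to 28.2), and in mesothelial cells, at 34.8% (31.4 to 38.2) and 30.9% (26.1 to 36.0). With free RNA subtracted it was lower in all 7, and in clusters with little free RNA in all but dendritic cells, at 39.8% and 40.7%. The other pairs were lopsided. Rpl7l1 gave 3.62% and 3.42% of its pair with Rpl7 in progenitors, Rpl39l, known from testis, had 35 UMIs in all, and Rpl3l, known from muscle, had 30.

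**Figure D5:**
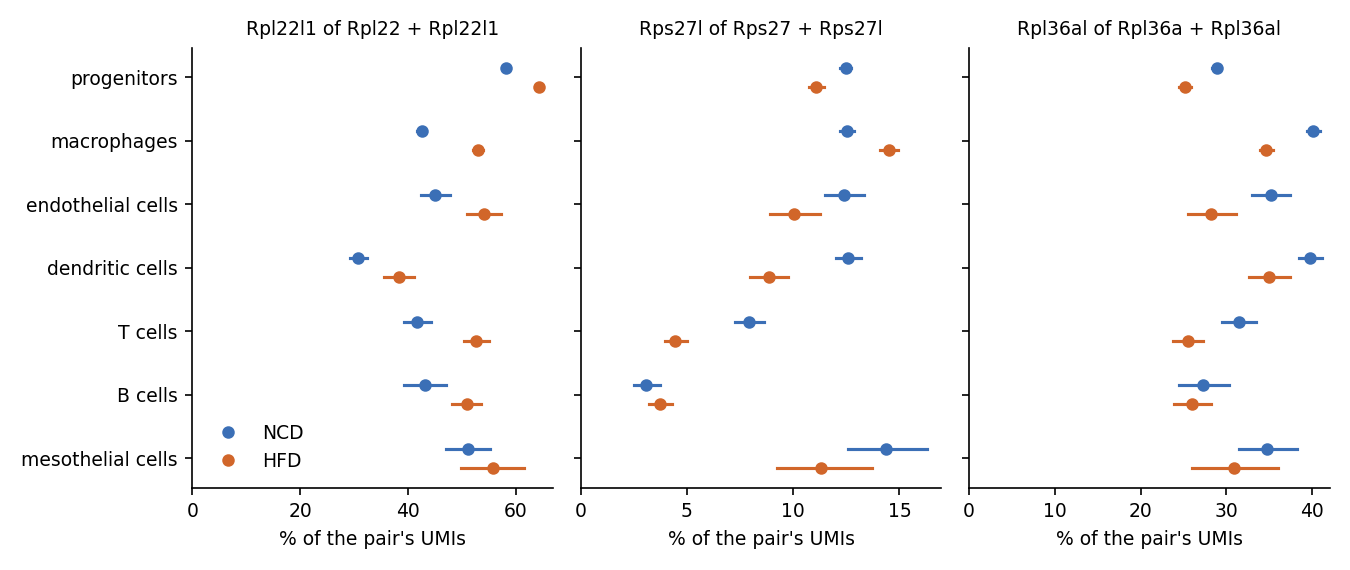
Share of a pair's UMIs that came from the paralogue (horizontal axis, 1 panel per pair) in 7 classes, blue NCD and orange HFD, with exact 95% binomial intervals as lines. Rpl22l1 is the higher in HFD in every class, though not in endothelial cells with free RNA subtracted, Rpl36al is the lower, though not in the dendritic cell clusters with little free RNA, and Rps27l is lowest in B and T cells.

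Rps27rt, a retrotransposed copy of Rps27, is a case in which the counts of 2 genes may not be separate. It gave 7.25% of the UMIs of its pair with Rps27 in NCD and 6.64% in HFD progenitors, 7.36% and 7.12% in macrophages and 7.13% and 6.36% in B cells. Over the 7 classes and both libraries its share ran from 6.29% to 8.12%, while Rps27 itself ran from 3266 to 12977 CPM. Shared reads between the copies cannot be told from transcripts of each. The start sites show the copy: the 30 bases around each start, 15 on either side, are given below from RefSeq on GRCm38.p6, 5′ to 3′, with capitals for the pyrimidine run that begins with C near the start. The longest stretch shared with the Rps27 window is 14 bases in Rps27rt and 5 bases in Rps27l.
Rps27 (chr3:90213634-90213663, minus strand): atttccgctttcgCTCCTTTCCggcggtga
Rps27rt (chr9:114982725-114982754, minus strand): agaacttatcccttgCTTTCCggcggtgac
Rps27l (chr9:66946071-66946100, plus strand): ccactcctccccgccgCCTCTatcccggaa

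Start sites of members that stood above the others in both large classes are shown for the same feature, since a pyrimidine run at the start is what ties these messenger RNAs to mTOR. Rpl15 and Rpl35 hold long runs, Rpl31 and Rpl39 shorter ones, and Rpl22l1 holds none that begins with C within 10 bases of the listed start, though one that begins with T follows it.
Rpl15 (chr14:18270972-18271001, minus strand): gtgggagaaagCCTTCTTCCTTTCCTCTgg
Rpl35 (chr2:39005117-39005146, minus strand): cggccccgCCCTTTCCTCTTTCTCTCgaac
Rpl31 (chr1:39367836-39367865, plus strand): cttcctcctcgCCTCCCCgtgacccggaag
Rpl39 (chrX:37085208-37085237, minus strand): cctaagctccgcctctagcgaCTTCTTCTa
Rpl22l1 (chr3:28805493-28805522, plus strand): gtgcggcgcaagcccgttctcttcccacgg
RefSeq start windows were found for 66 of the 87 members. A run of at least 5 pyrimidines that begins with C within 10 bases of the start was in 35 of these, 53.0%, and in 26.7% of 26959 other genes. The letters CCGGAAG, on either strand of the 300 bases from 250 before to 50 after the start, were in 39.4% of the members and 9.86% of the other genes. A match describes letters and not a working site, and listed starts can lie some bases from the true ones.

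Other genes of the ribosome and its supply were read from lists. Fau, a ubiquitin-like fusion of a small subunit protein, stood at log2 ratios of 0.16 in progenitors and -0.19 in macrophages, and Gnb2l1, the scaffold RACK1, at -0.15 and -0.14. Both were within 1.5-fold in either class.

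Of 21 translation factors whose messenger RNAs belong to the pyrimidine-run class, 0 were at least 1.5-fold lower and 1 higher in HFD progenitors, with a median of -0.02, and 1 was lower and 0 higher in macrophages, with a median of 0.17. Over all genes 15.2% were lower and 8.21% higher in progenitors and 22.3% and 15.3% in macrophages. The 1 higher was Hnrnpa1, an RNA-binding protein, at 108 and 174 CPM in progenitors, and the 1 lower was the initiation factor Eif4b, at a log2 ratio of -0.60 in macrophages. Eef1a1, which brings transfer RNA to the ribosome, was at 3132 CPM in NCD progenitors and 2467 CPM in HFD progenitors and at 2391 and 2481 CPM in macrophages. Tpt1 was lower in the HFD library in both, at log2 ratios of -0.30 and -0.37, and Eef1g higher, at 0.19 and 0.53. Members of this list thus lay on both sides of 0, as the ribosomal proteins did.

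Ribosome biogenesis genes, which make and assemble the subunits in the nucleolus, were read against all genes, of which 71.3% lay below 0 in progenitors and 54.3% in macrophages. Of 35 with at least 10 CPM, 31 (88.6%) lay below 0 in progenitors, with a median of -0.30 beside -0.21 over all genes. Of these, 5 (Bysl, Dkc1, Ltv1, Nip7 and Tsr1) were at least 1.5-fold lower, 14.3% beside 15.2% of all genes, so that count is near the background. In macrophages 14 of 33 (42.4%) lay below 0, with a median of 0.09 beside -0.06. Sbds, which frees the new large subunit for use, stood at -0.35 in progenitors. Among 14 growth-signalling genes, 13 (92.9%) lay below 0 in progenitors, with a median of -0.28, and 8 of 13 (61.5%) in macrophages, with a median of -0.07. The macrophage values are close to those over all genes. Eif4ebp1, which blocks cap-dependent translation until mTOR acts on it, was at 186 CPM in NCD progenitors and 129 CPM in HFD progenitors, a ratio of 0.693 (0.643 to 0.746). The mitochondrial ribosomal proteins, a separate set that works inside mitochondria, had a median of -0.17 in progenitors, with 62 of 74 (83.8%) below 0, and of 0.19 in macrophages, with 16 of 73 (21.9%) below 0. Mrpl20 stood at -0.24 in progenitors and 0.47 in macrophages. The difference between the classes was not tested for any of these lists.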

How the data were processed

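Counts were used as deposited: whole UMI counts per gene and cell barcode, from 1 NCD and 1 HFD library of droplet 3′ single-cell RNA. Per the submitters' processing notes, the authors used Cell Ranger and Seurat with mm10; no version is given in the sources used here. Members and lists were chosen with earlier results of these data known.

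Cells with at least 500 genes, 1000 UMIs and at most 20% mitochondrial UMIs were kept. Scrublet (scanpy 1.11.5) called 182 NCD doublets; in the HFD library its own threshold called 0%, so the top-scoring 5% of its barcodes (339) went out instead. Clustering took the 2 libraries as one table, without integration, on 2000 variable genes without the members, 30 components and 15 neighbours, by Leiden (igraph 0.11.9) at resolution 1 and again at 0.3. A cluster was named when at least 3 markers of a class reached 1.5-fold and either their mean log2 fold was at least 1 or 1 of them was among the 10 leading genes, unless markers of another class outnumbered its own there. Erythroid cells had to have at least 10% haemoglobin UMIs. The naming details were chosen after clusters were seen. 315 NCD and 13 HFD cells stayed unnamed.

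Shares were taken after thinning every cell to 1400 UMIs, and other values from counts summed per class and library, as CPM. Shares have Clopper-Pearson and ratios exact conditional binomial 95% intervals; PCR duplicates are removed by UMI, so these intervals cover nothing but counting error. A gene with 0 UMIs was read as up to 3 counts. The 7 classes with at least 50 cells in each library were compared. Named were the 5 members with the highest mean CPM, up to 5 each way farthest from the member median in progenitors and macrophages, the 6 with the widest range over classes, every paralogue pair with at least 10 UMIs, and up to 3 genes each way of each other list, some of which are given; ranked genes had at least 100 CPM. Genes past 1.5-fold in the smaller classes, Rpl27a, Eif4b and the 5 biogenesis genes past 1.5-fold were named after their values were seen. Alternatives were other depths, cell filters, clusterings, minimums and folds, and free RNA subtraction. The code was tested on simulated data. Python 3.11.15, numpy 2.4.6, scipy 1.17.1 and pandas 2.3.3 were used. Some named genes are not reported here.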

Additional observations from a re-analysis of the deposited data

Results flagged for a closer look

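Rps29 differed in direction between the 2 largest classes. Its log2 ratio of HFD over NCD CPM was 0.31 in progenitors and -0.38 in macrophages, and both 95% counting intervals exclude equal levels. The 2 classes come from the same libraries, with 1 library per diet, so the difference between them was not tested. Without free RNA the values were 0.20 and -0.37, and in clusters with little free RNA 0.24 and -0.36.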

How the results depend on the processing

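No paired analysis was possible because there is 1 library per diet, and no library could be left out. For the log2 ratio of the share, the alternatives that moved it past its counting interval or turned it are given by class, and the cause was not tested. In progenitors (0.017) it was 0.0046 at 2000 UMIs, -0.021 at 3000 UMIs, 0.045 without mitochondrial UMIs, 0.0089 with the stricter cell filter, 0.0092 by marker score, -0.041 with free RNA subtracted and 0.0016 in clusters with little free RNA. In macrophages (0.042) it was 0.022 without thinning, 0.022 at 2000 UMIs, 0.029 at 3000 UMIs, 0.056 without mitochondrial UMIs, -0.0043 with the stricter filter, 0.071 with doublets, 0.054 with members among the variable genes, 0.018 by marker score, -0.014 with free RNA subtracted and 0.027 in clusters with little of it. In dendritic cells (-0.060) it was 0.026 without thinning, -0.017 at 2000 UMIs, 0.14 at 3000 UMIs, -0.039 without mitochondrial UMIs, 0.0094 with no cell filter, 0.082 with the stricter filter, -0.034 with doublets, -0.045 with members among the variable genes, -0.19 by marker score, 0.15 with free RNA subtracted and 0.25 in clusters with little of it. In endothelial cells (0.37) it was 0.28 without thinning, 0.30 at 3000 UMIs, 0.39 without mitochondrial UMIs, -0.27 with free RNA subtracted and 0.099 in clusters with little of it. Added after seeing the data, T cells (-0.17) turned to 0.11 at 3000 UMIs, 0.22 with free RNA subtracted and 0.43 in clusters with little of it, and ran from -0.30 to -0.026 in the other alternatives. B cells (-0.48) turned to 0.023 with free RNA subtracted and ran from -0.62 to -0.049 in the others, with -0.11 at 3000 UMIs and -0.14 with the stricter filter. Mesothelial cells (0.42) moved to 0.30 without thinning, 0.15 by marker score and 0.18 in clusters with little free RNA. They stayed at 0.43 with free RNA subtracted.

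Of the counts of members past 1.5-fold, progenitors gave 2 lower and 2 higher at the lower fold threshold and 1 higher with no minimum. Macrophages gave 2 lower with no minimum, 1 lower and 7 higher at the lower fold threshold, and 0 higher at 2-fold, with the stricter filter, with doublets, with free RNA subtracted and in clusters with little of it. In progenitors and macrophages, 20 differences from the member median (16 named members, 4 of them in both classes) were followed. The 7 cell set, clustering and free RNA alternatives were chosen after seeing the data. The differences moved past their counting interval in 33 of 140 cases and changed sign in 0. They had been picked as the farthest from the median in largely the same cells, so a change of sign was unlikely from the outset. Signs that turned in the smaller classes stand in the report. Of the paralogue shares, also added later, the HFD minus NCD difference turned to -3.73 percentage points for Rpl22l1 in endothelial cells with free RNA subtracted and to 0.880 for Rpl36al in dendritic cells in clusters with little of it. Lower depth and higher free RNA in the HFD library limit these comparisons.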
